A study of Mus musculus with 2 samples.

Results

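Collagen genes are the protein-coding genes whose GENCODE mouse symbol reads Col, a number, the letter a and a second number, and that are listed in the gene and transcript tables of both libraries. There were 44 of them among 43346 Ensembl genes. By the type of collagen they encode, 11 are fibrillar, 6 are type IV chains of basement membranes, and 27 belong to other types. The tissue was whole colon, the last part of the gut, of C57BL/6J mice aged 8 weeks, with no treatment or engineered allele named, and the health state listed as unknown. Polyadenylated RNA was sequenced as 2 libraries of 1 group, biological replicates 1 and 2, with total expected counts of 46689262 in replicate 1 and 45966841 in replicate 2. The labels describe a pool of male and female littermates and give 1 donor record for both libraries, so the labels do not say whether they came from separate animals, and their spread may be partly technical. Counts of sex-linked genes, given further on, differed between the libraries as between a female and a male sample. A difference between the replicates therefore cannot be told apart from one between the sexes. With a single group the design gives the level of each gene and a comparison of the libraries with each other, not of conditions.

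Collagens are the main structural proteins of the extracellular matrix. Each is built from alpha chains that wind into a triple helix, which requires glycine at the start of every Gly-X-Y triplet of the chain. Fibrillar collagens assemble into the tension-bearing fibrils of connective tissue, type IV collagen forms the sheet-like network of basement membranes beneath epithelium and around vessels and muscle cells, and type VI collagen forms beaded microfilaments close to cells. FACITs, the fibril-associated collagens with interrupted helices, sit on fibril surfaces, and multiplexins lie at or near basement membranes and carry a cleavable carboxyl-terminal domain. In the gut wall, mesenchymal cells such as fibroblasts and smooth muscle cells are the main known source of fibrillar collagen.

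The repeat is visible in the coding sequence of the genes that led each class. Below are single coding exons on mm10, read from GENCODE vM21 transcripts, 5′ to 3′ on the coding strand, with the glycine codons of the repeat in capitals. The exon of Col1a1 is chr11:94939904-94939957 on the plus strand, that of Col1a2 is chr6:4515481-4515534 on the plus strand, and that of Col3a1 is chr1:45325360-45325413 on the plus strand. The exon of Col6a1 is chr10:76719623-76719676 and that of Col6a2 is chr10:76611948-76612001, both on the minus strand. These 5 were the first 54-base coding exons inside each chain's longest repeat.
Col1a1: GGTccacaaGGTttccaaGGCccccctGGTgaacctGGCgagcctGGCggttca
Col1a2: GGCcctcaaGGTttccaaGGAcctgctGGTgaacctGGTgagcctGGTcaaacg
Col3a1: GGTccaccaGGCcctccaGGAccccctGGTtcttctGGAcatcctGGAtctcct
Col6a1: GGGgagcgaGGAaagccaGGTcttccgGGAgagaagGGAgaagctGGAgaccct
Col6a2: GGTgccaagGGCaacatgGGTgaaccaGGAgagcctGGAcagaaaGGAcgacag
Each of these exons held 6 whole Gly-X-Y triplets with no break. The first coding exons of the type IV chains in which the repeat is interrupted are set beside them. For Col4a1 this is chr8:11244486-11244569 on the minus strand and for Col4a2 it is chr8:11402163-11402234 on the plus strand.
Col4a1: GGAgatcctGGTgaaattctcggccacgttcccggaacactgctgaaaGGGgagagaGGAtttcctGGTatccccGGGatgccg
Col4a2: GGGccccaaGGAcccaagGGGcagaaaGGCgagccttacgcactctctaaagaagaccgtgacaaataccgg
The lower-case stretch between or after the capitals marks where the triplets stop.

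Over the longest complete coding transcript of each gene, fibrillar chains carried 2 or 3 runs of Gly-X-Y triplets, the longest holding most of the triplets, and type IV chains many short ones, counting unbroken runs of at least 5 triplets. The longest run was 338 triplets in Col1a1, 339 in Col1a2 and 344 in Col3a1. Among the 11 fibrillar chains the longest run was shortest in Col24a1 and Col27a1, at 216 and 217 triplets of 327 and 329 in all their runs. The 6 type IV chains had between 22 and 27 runs each, and their longest run spanned 39 triplets in Col4a3 and 66 in Col4a2. Col6a1 and Col6a2 each had a longest run of 87 triplets, and Col6a3 had 45.

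Exon lengths also differed by class, though some FACIT genes were near the fibrillar ones. Of the internal coding exons of fibrillar genes, 305 of 627, or 48.6%, were exactly 54 bases long. Among type IV genes it was 12 of 284, or 4.23%, and among the other collagen genes it was 152 of 1005, or 15.1%. Within these others, FACIT genes had 109 of 414, or 26.3%, and varied widely. Col22a1, with a longest run of 113 triplets, had 28 of 61 and Col12a1 had 4 of 63, beside 21 of 49 in Col1a1. Over all protein-coding genes it was 1165 of 158395, or 0.736%. Exon lengths that are a multiple of 9 bases, a whole number of Gly-X-Y triplets, made up 83.9% in fibrillar, 47.2% in type IV and 56.1% in other collagen genes, and 14.3% over all protein-coding genes. The 3 short-chain genes Col8a1, Col8a2 and Col10a1 code for their chain in 2 exons each and have no internal coding exon.

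**Figure D1:**
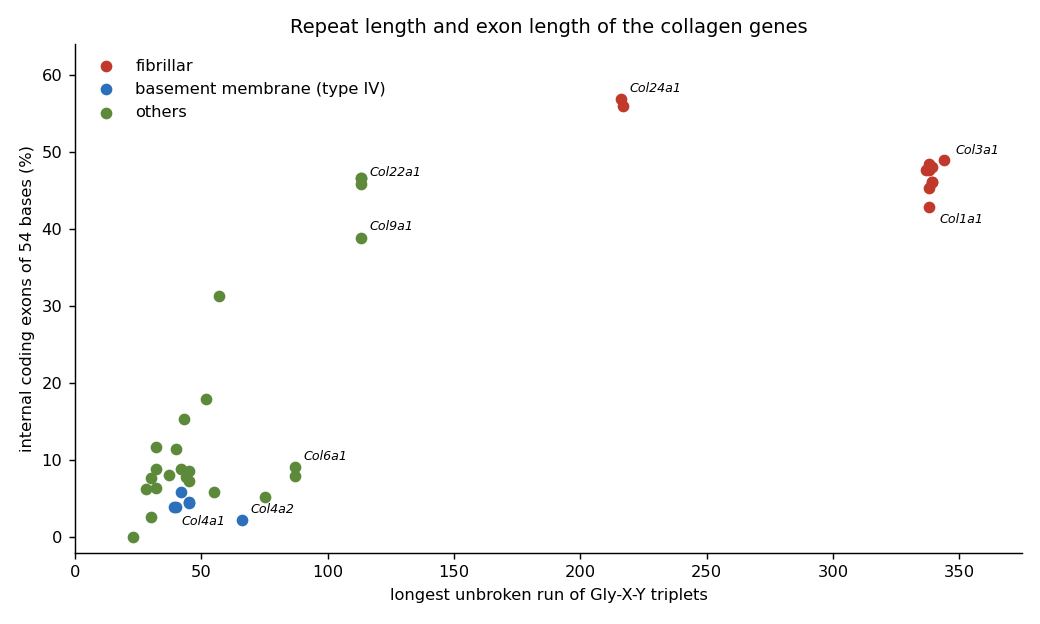
Longest unbroken run of Gly-X-Y triplets (horizontal axis) and percent of internal coding exons that are 54 bases long (vertical axis), 1 point per collagen gene, coloured by class; the 3 short-chain genes have no internal coding exon and are left out. Fibrillar genes lie to the right, with runs of 216 to 344 triplets, and type IV genes at the lower left, with runs of 39 to 66.

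Summed markers of epithelium, smooth muscle, fibroblasts and endothelium were at similar levels in both libraries, and the sums of several other cell types differed. Summed over marker lists, epithelial genes led by Krt19, Krt8 and Epcam had 9974 TPM (a level scaled for transcript length, on 1 total per library) in replicate 1 and 10170 in replicate 2. Smooth muscle genes led by Acta2, Tagln and Actg2 had 6985 TPM in replicate 1 and 6898 in replicate 2, fibroblast genes other than collagens, led by Fn1, Fbln1 and Fbln2, had 689.3 TPM in replicate 1, against 733.9 in replicate 2, and endothelial genes led by Egfl7, Tie1 and Cdh5 had 158.5 TPM in replicate 1 and 159.5 in replicate 2. Egfl7 alone gave 101.7 TPM of the endothelial sum in replicate 1 and 101.2 in replicate 2. By scaled counts, 6 of the 7 endothelial genes were lower in replicate 1 (median log2 ratio -0.09). Replicate 1 held 29.34 TPM of 7 pancreatic acinar genes led by Ctrb1, Cela2a and Prss2, against 32030 TPM in replicate 2. Erythroid genes led by Hba-a2, Hba-a1 and Hbb-bs had 524.6 TPM in replicate 1 and 2998 in replicate 2. All 7 acinar and all 5 erythroid genes were called lower in replicate 1 by the binomial test used for the collagens. Over all genes that test called 3.81% lower and 2.54% higher in replicate 1. Adipocyte genes led by Cfd, Lpl and Plin1 had 234.8 TPM in replicate 1 and 496.1 in replicate 2, mesothelial genes led by Upk3b, Msln and Lrrn4 had 26.06 in replicate 1 and 16.61 in replicate 2, and skeletal muscle genes led by Ckm, Acta1 and Tnnt3 had 112.8 in replicate 1 and 63.55 in replicate 2. The skeletal muscle sum rested on Ckm and Acta1, the 2 of 6 genes at 1 TPM or more in both libraries; Tnnt3 had 5 counts in replicate 1 and 12 in replicate 2, and Myh4 was listed at 0 TPM. All 4 mesothelial genes were higher in replicate 1, with 0 called. Of the adipocyte and skeletal muscle lists, Cfd and Fabp4 were called lower and Acta1 higher in replicate 1. Replicate 1 also had 0 counts of 4 Y-linked genes and 8721 of Xist, and replicate 2 had 1382 of the Y-linked genes and 12 of Xist, which goes against a label of pooled sexes and against 1 shared pool for both. The part of these differences in the collagen values was not tested, and in whole tissue fewer cells of a type and less RNA per cell cannot be told apart.

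Collagen transcripts rested on few genes. The sum over all 44 genes was 1147 TPM in replicate 1, and 1186 TPM in replicate 2, for a mean of 1166 ± 28.2 (SD, n = 2). They took 0.434% of all expected counts in replicate 1 (exact 95% binomial interval 0.432% to 0.436%, counting error only) and 0.461% in replicate 2 (0.459% to 0.463%). A TPM of at least 1 was reached in both libraries by 26 of the 44 genes, in 1 library by 2, and in neither by 16. The 7 highest genes held 73.3% of collagen TPM in replicate 1 and 73.9% in replicate 2. Highest of all was Col6a2, which ranked 729 among 21474 protein-coding genes by mean TPM, followed by Col6a1 at 888 and Col3a1 at 1083. On mm10, Col6a2 lies at chr10:76595762-76623630 and Col6a1 at chr10:76708792-76726168, both on the minus strand, and Col3a1 at chr1:45311538-45349706 on the plus strand. Col1a2 lies at chr6:4504814-4541544, Col1a1 at chr11:94936224-94953042 and Col4a2 at chr8:11312805-11449287, all on the plus strand, and Col4a1 at chr8:11198423-11312826 on the minus strand.

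**Figure D2:**
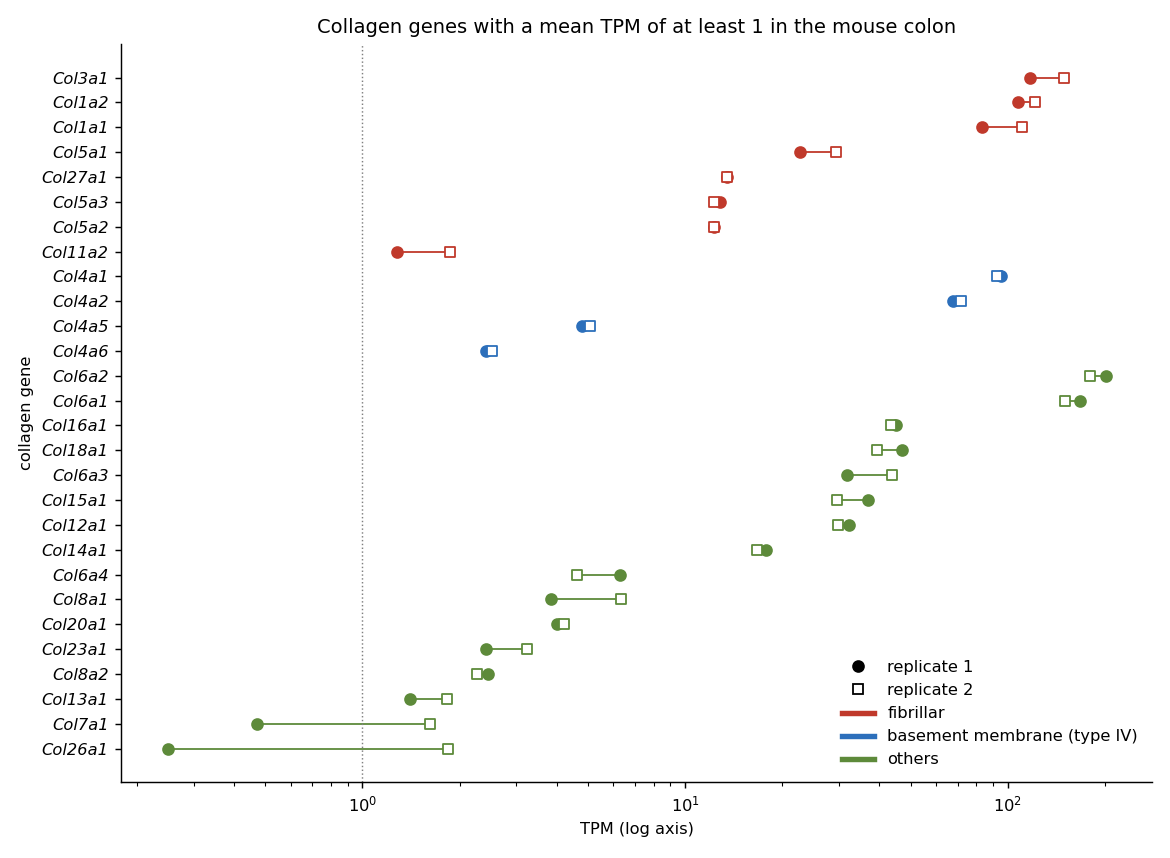
TPM on a log axis of the 28 collagen genes that averaged 1 TPM or more, in replicate 1 (filled circles) and replicate 2 (open squares), grouped by class; the dotted line marks a TPM of 1. Col6a2 is highest at 201.1 TPM in replicate 1, against 180.0 in replicate 2, and Col7a1 and Col26a1 are the genes that cross the dotted line.

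Fibrillar collagen in the colon was that of types III and I. Col3a1, the single chain of type III collagen, had 117.2 TPM in replicate 1 and 149.2 in replicate 2. Col1a2 had 107.4 TPM in replicate 1, against 121.1 in replicate 2, and Col1a1 had 83.18 TPM in replicate 1 and 110.6 in replicate 2; these are the chains of type I collagen, which joins a pair of alpha 1 chains to each alpha 2 chain. All 3 were lower in replicate 1. The ratio of Col1a1 to Col1a2 TPM was 0.774 in replicate 1 and 0.913 in replicate 2, below 1 in both libraries.

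Type V chains, which start and regulate the diameter of type I fibrils, were lower. Col5a1 had 22.75 TPM in replicate 1 and 29.36 in replicate 2. Col5a3 had 12.87 TPM in replicate 1, against 12.32 in replicate 2, and Col5a2 had 12.3 TPM in replicate 1 and 12.26 in replicate 2. Col5a1 thus exceeded Col5a2 in both libraries, at ratios of 1.85 in replicate 1 and 2.40 in replicate 2, while Col5a3 and Col5a2 were nearly level. Col27a1, a fibrillar chain with a shortened helix, had 13.49 TPM in replicate 1 and 13.53 in replicate 2 over all its transcripts, from 2382 counts in replicate 1 and 1919 in replicate 2.

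The cartilage collagens were low or near the limit of detection. Col11a2, a chain of type XI collagen, had 1.28 TPM in replicate 1 against 1.87 in replicate 2, and its partner Col11a1 had 0.22 TPM in replicate 1 and 0.10 in replicate 2. Counts of Col11a2 were 195 in replicate 1 and 183 in replicate 2 (log2 ratio 0.06), and its retained-intron transcript Col11a2-207 had 0.23 TPM in replicate 1 and 0.90 in replicate 2. Col2a1, the main fibrillar collagen of cartilage, had 2 counts in replicate 1 and 1 in replicate 2, and Col10a1, the collagen of hypertrophic cartilage, had 0 in replicate 1 and 3 in replicate 2. Of 5 cartilage cell markers, Acan and Matn1 were listed at 0, and all 5, led by Sox5, Comp and Hapln1, came to 1.68 TPM in replicate 1 and 1.99 in replicate 2. Comp was the 1 of 3 tested markers called, with 25 counts in replicate 1 and 76 in replicate 2. Over all genes the binomial test called 6.35%, and 3 markers are too few to set against that share. The remaining fibrillar gene, Col24a1, had 0.35 TPM in replicate 1 and 0.87 in replicate 2, but 89 counts in replicate 1 and 62 in replicate 2, so its direction turned with the unit.

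Type VI collagen had the highest single genes. Col6a2 averaged 190.6 ± 15.0 TPM and Col6a1 159.2 ± 12.0 TPM (SD, n = 2 each), with 167.7 TPM of Col6a1 in replicate 1 and 150.8 in replicate 2. The ratio of Col6a1 to Col6a2 was 0.834 in replicate 1 and 0.838 in replicate 2, the closest match between the libraries of any chain pair compared. Col6a3, the long chain that joins them in the type VI monomer, had 31.87 TPM in replicate 1 and 43.81 in replicate 2. Col6a1 was therefore 5.26 times Col6a3 in replicate 1 and 3.44 times in replicate 2. The classical monomer holds these chains in equal number.

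The chains that can stand in for Col6a3 were much lower. Col6a4 had 6.3 TPM in replicate 1 and 4.61 in replicate 2, Col6a5 had 0.36 in replicate 1 and 0.48 in replicate 2, and Col6a6 had 0.00 in replicate 1 and 0.05 in replicate 2. Their genes lie in a row on chromosome 9, on the same strand, with 27917 bases between Col6a6 and Col6a5 and 28810 between Col6a5 and Col6a4. Col6a2 and Col6a1 are likewise on the same strand of chromosome 10, 85161 bases apart.

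Type IV collagen transcripts were mostly those of the ubiquitous alpha 1 and alpha 2 chains. Col4a1 had 95.67 TPM in replicate 1, beside 92.97 TPM in replicate 2, with a mean of 94.3 ± 1.91 (SD, n = 2). Col4a2 had 67.87 TPM in replicate 1 and 71.59 in replicate 2, so the ratio of Col4a1 to Col4a2 was 1.41 in replicate 1 and 1.30 in replicate 2. Col4a5 had 4.78 TPM in replicate 1, against 5.07 in replicate 2, and Col4a6 had 2.42 in replicate 1 and 2.53 in replicate 2; these chains form a network found around smooth muscle and beneath some epithelia. Col4a1 was 20.0 times Col4a5 in replicate 1 and 18.3 times in replicate 2, and 48.5 times in replicate 1 and 42.8 times in replicate 2 on transcripts annotated with a complete coding region. Col4a3 and Col4a4, the chains of glomerular and lung basement membranes, had 0.19 and 0.13 TPM in replicate 1 and 0.32 and 0.14 in replicate 2.

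These 6 genes lie in 3 head-to-head pairs, and the levels of partners sorted by pair. Col4a1 and Col4a2 overlap by 22 bases at their 5′ ends at chr8:11312805-11312826 on mm10, shown here on the plus strand from the RefSeq promoter window of Col4a2.
Col4a2: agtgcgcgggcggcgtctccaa
Col4a4 and Col4a3 start 71 bases apart on chromosome 1, and Col4a6 and Col4a5 start 1308 bases apart on the X chromosome. The level was highest for Col4a1 with Col4a2, lower for Col4a5 with Col4a6 and lowest for Col4a3 with Col4a4 in both libraries. Whether the counting used the strand is not given in the sources used here, so reads in the overlap cannot be assigned with certainty, but the overlap is short beside transcripts of 6615 and 6450 bases.

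FACIT genes formed the next tier by TPM over all transcripts, and their levels depended on which transcripts were counted. Col16a1 had 45.13 TPM in replicate 1 and 43.6 in replicate 2, Col12a1 had 32.22 in replicate 1 and 29.75 in replicate 2, and Col14a1 had 17.84 in replicate 1 and 16.73 in replicate 2. Col12a1 and Col14a1 encode collagens XII and XIV, which bind the surface of type I fibrils. Col20a1 had 4.01 TPM in replicate 1 and 4.22 in replicate 2, with 319 counts in replicate 1 and 279 in replicate 2 on a second annotated gene inside its span and on its strand. Below 1 TPM were the cartilage FACIT chains Col9a1, Col9a2 and Col9a3, of which Col9a3 was highest at 0.97 in replicate 1 and 0.63 in replicate 2, and Col22a1. Col19a1 had 1 count in replicate 1 and 0 in replicate 2.

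The multiplexins were higher in replicate 1. Col18a1, whose carboxyl-terminal fragment is endostatin, had 47.16 TPM in replicate 1 against 39.32 in replicate 2. Col15a1 had 36.97 TPM in replicate 1, against 29.61 in replicate 2, and the ratio of Col18a1 to Col15a1 was 1.28 in replicate 1 and 1.33 in replicate 2. Col18a1 overlaps the folate transporter gene Slc19a1 on the opposite strand, which had 1923 counts in replicate 1 and 1656 in replicate 2, beside 8104 in replicate 1 and 6651 in replicate 2 for Col18a1.

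The remaining types were at a few TPM or less. Col8a1 and Col8a2, the short-chain collagens of endothelial and corneal basement layers, had 3.84 and 2.45 TPM in replicate 1 and 6.35 and 2.27 in replicate 2. Their ratio, 1.57 in replicate 1 and 2.80 in replicate 2, moved more than that of any other pair compared with both chains above 1 TPM. The transmembrane collagens Col23a1 and Col13a1 had 2.41 and 1.40 TPM in replicate 1 and 3.23 and 1.83 in replicate 2. Col17a1, the hemidesmosomal collagen of stratified epithelium, had 0.68 TPM in replicate 1, against 0.24 in replicate 2, and Col25a1, a neuronal membrane collagen, had 0.12 in replicate 1 and 0.06 in replicate 2. Col28a1 had 0.23 TPM in replicate 1 and 0.43 in replicate 2, while its posterior mean TPM in the same tables was 3.83 in replicate 1 and 2.20 in replicate 2, so its level depends on the estimator. In all, the 16 genes under 1 TPM in both libraries held 4.13 TPM in replicate 1 and 4.52 in replicate 2.

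By class, the fibrillar sum was 371.1 TPM in replicate 1, against 451.3 TPM in replicate 2, with a mean of 411.2 ± 56.7. Type IV genes held 171.1 TPM in replicate 1, beside 172.6 in replicate 2, with a mean of 171.8 ± 1.10, and the other types held 604.4 in replicate 1 and 562.5 in replicate 2, a mean of 583.5 ± 29.6 (SD, n = 2 each). As shares of collagen TPM, fibrillar genes held 32.4% in replicate 1 and 38.0% in replicate 2, type IV genes 14.9% in replicate 1 and 14.6% in replicate 2, and the others 52.7% in replicate 1 and 47.4% in replicate 2. The type IV total was the steadiest and the fibrillar total moved most. Within the others, type VI held 35.5% of collagen TPM in replicate 1 and 32.0% in replicate 2, FACITs 8.81% in replicate 1 and 8.09% in replicate 2, and multiplexins 7.34% in replicate 1 and 5.81% in replicate 2. Type VI genes thus exceeded fibrillar genes in replicate 1 and were below them in replicate 2. In expected counts fibrillar genes were above type VI genes in both libraries, with 36.9% against 31.2% of collagen counts in replicate 1 and 42.2% against 28.4% in replicate 2. On that scale, which leaves out transcript length, the others had a mean share of 41.6% in place of 50.1%. FACITs were below multiplexins there, with 4.9% against 6.6% of collagen counts in replicate 1 and 4.5% against 5.2% in replicate 2. On complete coding transcripts FACITs held 1.8% of collagen TPM in replicate 1 and 1.6% in replicate 2. Multiplexins held 7.7% in replicate 1 and 6.1% in replicate 2 on those transcripts.

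**Figure D3:**
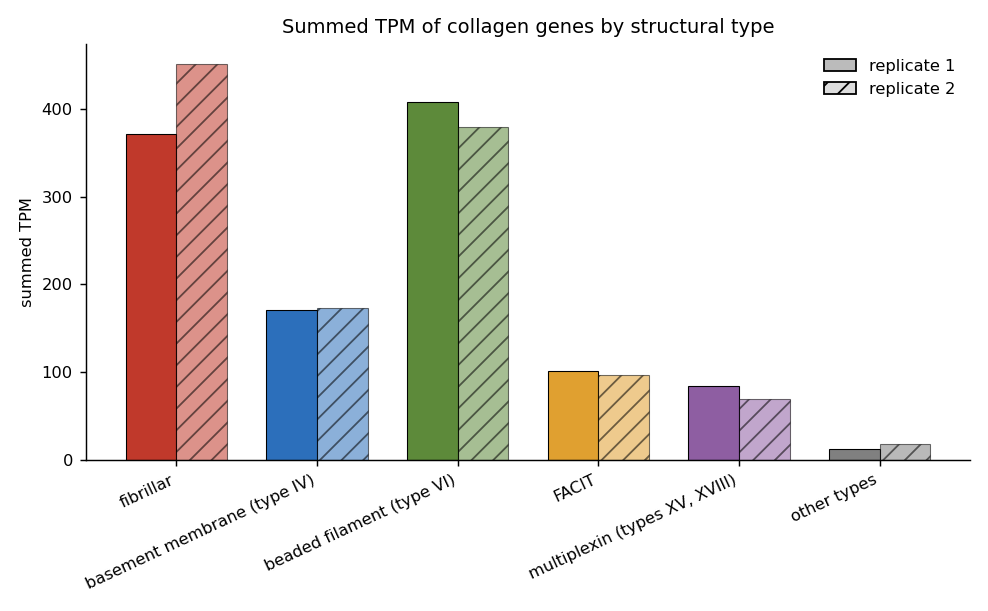
Summed TPM of collagen genes by structural type, replicate 1 (solid) left of replicate 2 (hatched). The fibrillar sum is 371.1 TPM in replicate 1 beside 451.3 in replicate 2, the type VI sum is 407.4 in replicate 1 beside 379.7 in replicate 2, and the type IV sum is 171.1 in replicate 1 and 172.6 in replicate 2.

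Collagen genes were called different between the libraries about as often as other genes. Each gene's counts were compared by a two-sided exact binomial test on library sizes scaled by TMM, with Benjamini-Hochberg adjustment across 17713 genes, and called at an adjusted p of at most 0.05 with at least a 2-fold difference. With 1 library on each side, the test covers counting error only, and its p-values compare these libraries only. Of 41 collagen genes whose counts summed to 10 or more, 3 were called, where 6.35% of all genes were, a share close to that of the collagens; the 3 left untested were Col2a1, Col10a1 and Col19a1. Higher in replicate 1 was 1 gene, where 2.54% of all genes were, and higher in replicate 2 were 2 genes, where 3.81% were.

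The genes called were low ones. Col7a1, the anchoring fibril collagen that fastens stratified epithelium to its stroma, had 137 counts in replicate 1, against 274 in replicate 2, so that the log2 ratio of replicate 1 over replicate 2 was -1.03 (exact binomial test, adjusted p = 1.6e-11). Col6a6 had 1 count in replicate 1 and 14.2 in replicate 2 (log2 ratio -3.31, exact binomial adjusted p = 0.0014). With so few counts, the exact 95% interval of its log2 ratio, -3.84 with nothing added to the counts, ran from -9.24 to -1.12, counting error only. Col25a1 had 26 counts in replicate 1 and 11 in replicate 2 (log2 ratio 1.17, exact binomial adjusted p = 0.042). Col25a1 lost its call when every gene with a count was tested. Intervals of the same kind ran from -1.34 to -0.73 for Col7a1 and from 0.14 to 2.37 for Col25a1, both reaching within 2-fold. Col9a1, with 6 counts in replicate 1 and 16 in replicate 2, had a log2 ratio of -1.38 and was not called (exact binomial adjusted p = 0.064). None was called by edgeR's exact test at the common dispersion of both libraries, where 1.35% of all genes were. The dispersion was estimated from these same libraries as 1 group. Their difference thus entered it, which lowers the number of calls of the test. At an unadjusted p under 0.05 that test held 1 collagen gene, Col6a6, which rests on few counts. The share of all genes at that level was not counted, so it is no result about the collagens.

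With no fold threshold the same binomial test passed 22 of the 41 genes, or 53.7%, beside 49.4% of all genes, so passing it did not set collagens apart at this depth. Of these, 9 were higher in replicate 1 and 13 in replicate 2. Among fibrillar genes, 4 were lower in replicate 1 and 1 was higher: Col1a1 had a log2 ratio of -0.44, Col3a1 of -0.36, Col5a1 of -0.35 and Col1a2 of -0.18, and Col27a1 of 0.28. All 6 type VI genes passed, 3 in each direction: Col6a1 and Col6a2 each at 0.14 and Col6a4 at 0.54, against Col6a3 at -0.42, Col6a5 at -0.43 and Col6a6 at -3.31. Both multiplexins were higher in replicate 1, Col18a1 at 0.25 and Col15a1 at 0.20. In type IV, 2 of 6 genes passed, Col4a1 at 0.03 and Col4a2 at -0.09, and none of the 8 FACIT genes tested did.

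In size, the differences were near those of other genes. The median log2 ratio was -0.04 over the 41 collagen genes and -0.01 over all 17713 genes. Among genes averaging 10 TPM or more, the median size of the log2 ratio was 0.14 over 17 collagen genes and 0.17 over 7730 genes. The 17 ranged from -0.44 to 0.28, with 9 higher in replicate 1 and 8 in replicate 2. Fibroblast markers other than collagens had a median log2 ratio of -0.00 and 0 of 10 called, with 5 genes above 0 and 5 below. By the same measures the fibrillar collagen genes had a median of -0.02 and 0 of 10 called. Over all genes 6.35% were called, so 0 of 10 is near that share. The highest fibroblast markers went both ways. Fn1 at -0.17 and Fbln1 at -0.18 were lower in replicate 1. Fbln2 at 0.03, Mfap5 at 0.08 and Dpt at 0.02 were higher. Medians leave out the size of the largest differences. By sum, fibrillar genes had 371.1 TPM in replicate 1 and 451.3 in replicate 2. The fibroblast markers had 689.3 TPM in replicate 1 and 733.9 in replicate 2. Whether the 2 lists share a cell source was not tested. Adipocyte markers were lower in replicate 1 in 6 of 6 genes, with 2 called, and their part in the lower fibrillar values of replicate 1 was not tested.

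**Figure D4:**
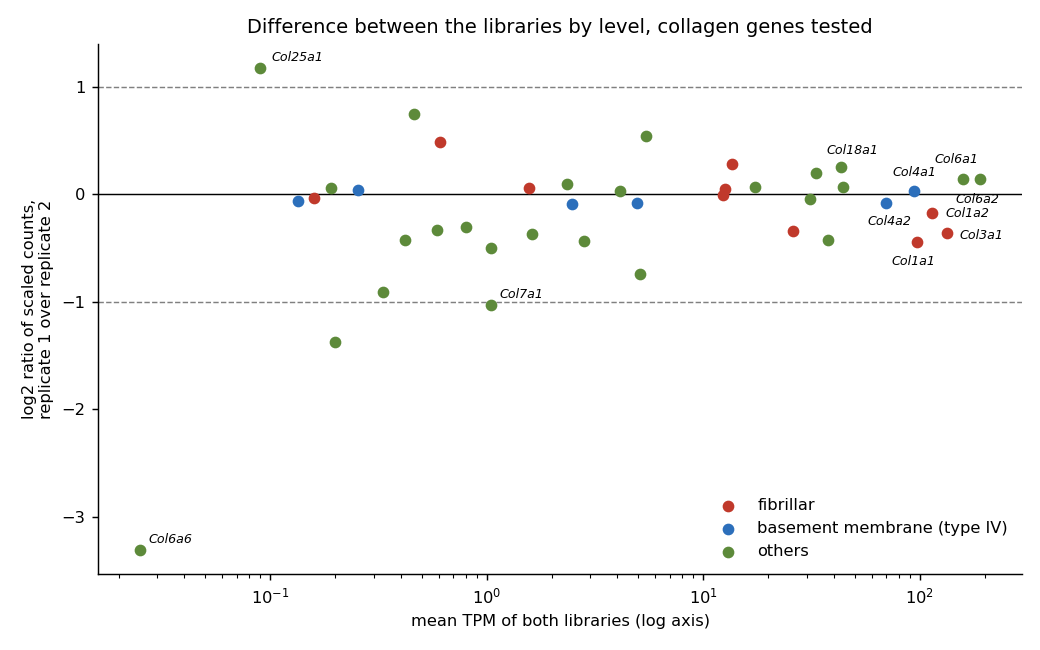
Log2 ratio of scaled counts, replicate 1 over replicate 2, against mean TPM on a log axis for the 41 collagen genes tested, coloured by class; dashed lines mark a 2-fold difference. Genes averaging 10 TPM or more lie between -0.44 and 0.28, and the genes beyond the dashed lines are at the low end.

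Transcript tables showed that a gene's TPM can rest on transcripts not annotated with a complete coding region. An incomplete annotation lacks an end, which does not show that the RNA itself is truncated. Of the 28 genes averaging 1 TPM or more, 19 had at least 90% of their TPM on transcripts annotated as coding with a complete reading frame in both libraries. These included Col3a1, Col1a1, Col1a2, Col6a1, Col6a2, Col6a3, Col4a1 and Col4a2. In 5 genes such transcripts held under 50% in both libraries. Col16a1 was lowest, at 11.0% in replicate 1 and 5.80% in replicate 2. Col12a1 had 15.5% in replicate 1 and 20.0% in replicate 2, Col14a1 21.2% in replicate 1 and 21.4% in replicate 2, Col27a1 45.7% in replicate 1 and 34.0% in replicate 2, and Col4a5 41.2% in replicate 1 and 42.6% in replicate 2.

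In Col16a1, Col12a1 and Col14a1 a short transcript led in TPM. For Col16a1 it was Col16a1-207, an 833-base processed transcript with 20.23 TPM in replicate 1 against 21.46 in replicate 2, followed by the processed transcript Col16a1-202 at 8.05 TPM in replicate 1, against 7.75 in replicate 2, and Col16a1-209, marked for nonsense-mediated decay, at 5.54 in replicate 1 and 5.96 in replicate 2. The complete coding transcript of Col16a1 had 4.97 TPM in replicate 1 and 2.53 in replicate 2. By counts Col16a1-202 led, with 1285 in replicate 1 and 1223 in replicate 2. Col16a1-207 had 461 counts in replicate 1 and 490 in replicate 2, and the complete coding transcript 909 in replicate 1 and 456 in replicate 2. Col12a1-204, an incomplete annotation of 1784 bases, held 71.8% of Col12a1 TPM in replicate 1 and 70.4% in replicate 2. The full-length Col12a1-201 of 11511 bases held 14.9% in replicate 1 and 17.0% in replicate 2. In counts the order was the reverse, 1330 in replicate 1 and 1196 in replicate 2 on Col12a1-204 and 1983 in replicate 1 and 2064 in replicate 2 on Col12a1-201. Col14a1-204, incomplete at 2085 bases, held 78.8% of Col14a1 TPM in replicate 1 and 78.6% in replicate 2, and Col14a1-203 13.2% in replicate 1 and 21.4% in replicate 2. On complete coding transcripts alone, the ratio of Col4a5 to Col4a6 was 0.821 in replicate 1 and 0.854 in replicate 2, where all transcripts gave 1.98 in replicate 1 and 2.00 in replicate 2.

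**Figure D5:**
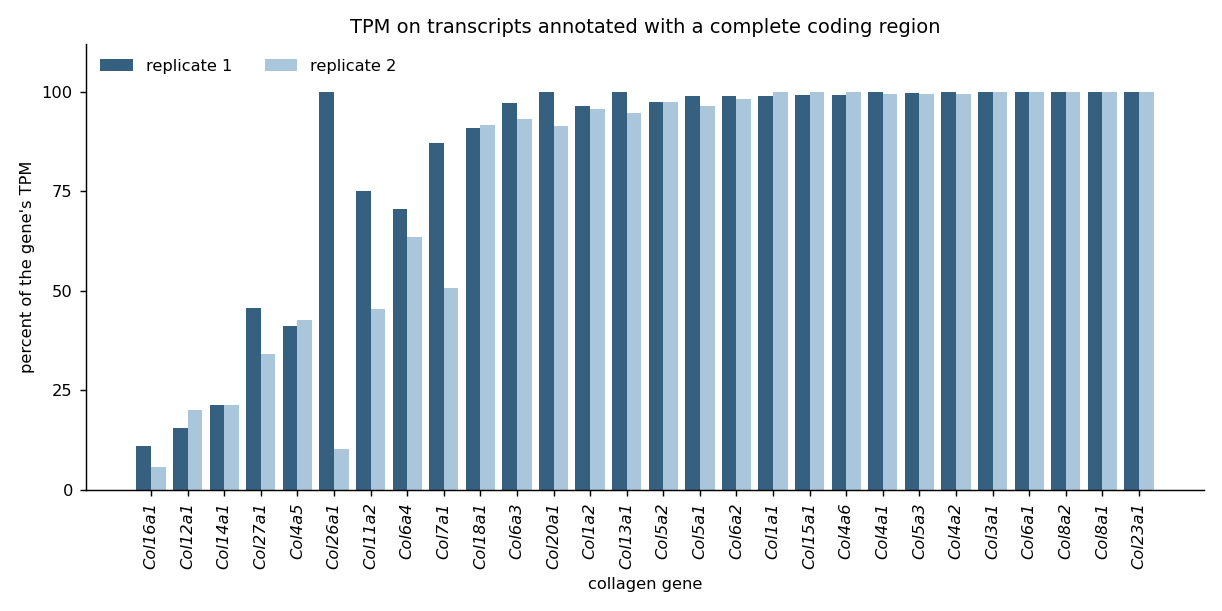
Percent of each gene's TPM on transcripts annotated as coding with a complete reading frame, replicate 1 (dark) left of replicate 2 (light), for the 28 collagen genes that averaged 1 TPM or more. Col16a1, at 11.0% in replicate 1 and 5.80% in replicate 2, is at the left end, and most genes stand above 90%.

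The leading transcript was the same in both libraries for 24 of 27 genes with more than 1 transcript. The exceptions were Col11a2, Col26a1 and Col27a1. In Col27a1, Col27a1-201 led in replicate 1 with 6.16 TPM, against 4.60 in replicate 2, and the processed transcript Col27a1-205, with 2.69 TPM in replicate 1 and 5.40 in replicate 2, led in replicate 2; Col27a1-206 had 3.14 TPM in replicate 1 and 2.51 in replicate 2. Col26a1 had 23 counts in replicate 1 and 32 in replicate 2, yet 0.25 TPM in replicate 1 and 1.84 in replicate 2. The 368-base retained-intron transcript Col26a1-205 was assigned 0 counts in replicate 1 and 8.79 in replicate 2, which alone gave 1.45 TPM there. The 341-base retained-intron transcript Col7a1-204 had 0 counts in replicate 1 and 3 in replicate 2, and those 3 gave 0.59 of the 1.62 TPM of Col7a1 in that library.

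Among genes averaging 5 TPM or more, those with a second complete coding form at 10% or more of TPM in at least 1 library were Col15a1 and Col18a1. Col15a1-202 held 68.0% of Col15a1 TPM in replicate 1 and 76.4% in replicate 2. The shorter Col15a1-203, of 1755 bases, held 30.9% in replicate 1 and 23.0% in replicate 2. Col18a1-202 held 78.6% of Col18a1 TPM in replicate 1 and 80.9% in replicate 2. The longer Col18a1-201 held 10.4% in replicate 1 and 7.67% in replicate 2. Below that share, Col6a2-202 held 5.68% of Col6a2 TPM in replicate 1 and 7.02% in replicate 2, and Col14a1-201 held 6.67% of Col14a1 TPM in replicate 1 and 0% in replicate 2. In Col6a4, Col6a4-201 held 70.5% in replicate 1 and 63.6% in replicate 2, and the processed transcript Col6a4-203 held 29.5% in replicate 1 and 36.4% in replicate 2.

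Genes that modify and export procollagen were expressed alongside, and the binomial test called 0 of 15 hydroxylases and related enzymes, 0 of 8 chaperones and export factors, and 0 of 8 genes of propeptide removal. Against the 6.35% called over all genes, a count of 0 in lists of this size is near the background. The list of hydroxylases and related enzymes, 14 of 15 genes at 1 TPM or more, held 678.1 TPM in replicate 1 and 677.5 in replicate 2. It was led by P4hb at 229.8 TPM in replicate 1 and 216.2 in replicate 2, the beta subunit of prolyl 4-hydroxylase, then Ppib and Colgalt1. Serpinh1, the collagen chaperone Hsp47, had 174.1 TPM in replicate 1, against 143.5 in replicate 2, and led the chaperone and export list over Mia3 and Sec24d. Propeptide removal, led by Pcolce, Bmp1 and Adamts2, had 4 of 8 genes at 1 TPM or more. Crosslinking genes came to 159.7 TPM in replicate 1 and 158.4 in replicate 2, with 0 of 6 called, led by Loxl1 at 79.1 TPM in replicate 1 and 80.73 in replicate 2, then Pxdn, which crosslinks type IV collagen, and Loxl2.

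Partners of the collagens in the matrix and on cells followed. Fibril-associated proteoglycans, led by Bgn, Dcn and Prelp, held 300.4 TPM in replicate 1 and 299.5 in replicate 2. Of 6 tested, 5 had a log2 ratio below 0 and Bgn had one of 0.13; the median was -0.22. Their 1 called member of 6 tested was Fmod, fibromodulin, with 129 counts in replicate 1 and 258 in replicate 2 (log2 ratio -1.03, exact binomial adjusted p = 6.3e-11), and Kera was listed at 0. Collagen receptors, led by Ddr1, Itgb1 and Mrc2, came to 193.0 TPM in replicate 1 and 159.7 in replicate 2 with 0 of 10 called, and Ddr1, a receptor tyrosine kinase of epithelium, had 123.1 TPM in replicate 1 and 96.4 in replicate 2. Basement membrane partners of type IV collagen, led by Lamb3, Lamb2 and Hspg2, came to 478.6 TPM in replicate 1 and 520.8 in replicate 2 with 0 of 15 called. Over all genes 6.35% were called, so 0 or 1 called in lists this small does not set them apart. Hspg2, perlecan, had 49.0 TPM in replicate 1 and 72.63 in replicate 2 (log2 ratio -0.78), while type IV collagen summed to nearly the same TPM in both.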

How the data were processed

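The gene and transcript tables of both libraries were used as deposited. They hold expected counts estimated by the authors, not normalized, and TPM, posterior mean TPM and FPKM as scaled by the authors; the transcript tables add the percent of a gene's abundance on each transcript, as deposited. The column names are those of RSEM output, per the file headers, and the deposited notes name mm10 with GENCODE M4. Not given in the sources used here are the aligner, the quantifier version and the use of strand in counting. Junction counts and contig signal, deposited by the authors on mm9, were not used here, for want of an mm9 annotation. Libraries were stranded and rRNA-depleted, read from both ends, per the labels.

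Symbols, biotypes, coordinates and coding exons came from GENCODE vM21 by identifier without version (42462 of 43346 Ensembl genes matched). Expected counts were rounded to whole numbers for the binomial test (with the exact tail doubled where both counts summed to over 2000). Ratios used TMM scaling from edgeR 4.0.16 (R 4.3.3) with 0.5 added to each count. edgeR's exact test used the common dispersion of both libraries (a coefficient of variation of 0.271), and DESeq2 1.42.0 gave alternative size factors. The binomial test was tested on simulated counts with counting error only, so that trial does not cover other variation between libraries. Complete coding transcripts are those annotated protein-coding with no missing end.

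All members were accounted for. Named with values were members averaging 1 TPM or more, called members, the 3 highest genes of each list, and transcripts with at least 10% of a gene averaging 5 TPM or more; other low members, Fmod, Hspg2 and the transcripts of low genes were named after their values were seen. The members and the 7 pathway and 11 marker lists were chosen with earlier results of these data known. The result of 1 marker list is not reported here. Alternatives covered scaling, filters, thresholds, units, class bounds and leaving out a library.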

Additional observations from a re-analysis of the deposited data

How the results depend on the processing

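Under a TPM of at least 5, 17 collagen genes were detected in both libraries in place of 26. On complete coding transcripts, an alternative chosen after seeing the data, summed TPM was 1055 for all collagen genes, 168.2 for type IV and 490.7 for the other types, with a type IV share of 15.95%. Shares of expected counts were 18.87% for type IV, 39.54% for fibrillar and 41.59% for the other types, a change that follows from leaving out transcript length. With Col7a1, Col15a1 and Col18a1 counted as basement membrane genes, that class held 21.4% and the others 43.4%. Collagen genes differing between the libraries numbered 3, and 1 with a summed count of at least 100, 0 by edgeR's exact test and 22 with no fold threshold; the 3 other scalings gave 3, and testing every gene with a count gave 2. The median log2 ratio was -0.04, and 0.01 with a summed count of at least 100. Without 1 replicate, detection ranged from 26 to 28 genes, summed TPM from 1147 to 1186 (fibrillar 371.1 to 451.3, type IV 171.1 to 172.6, others 562.5 to 604.4), and shares from 32.36% to 38.04% for fibrillar, 14.55% to 14.92% for type IV and 47.41% to 52.72% for others. No paired analysis was possible because the 2 libraries form 1 group. A count of 0 allows up to 3 counts, and levels under 1 TPM rest on at most 158 counts a library.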
